A study of Homo sapiens with 4 samples.

Results

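The BCL2 family was followed in 92.1, an established human uveal melanoma line (a tumour of the pigment cells of the eye), through 10 genes listed by name: BCL2, BCL2L1, BCL2L2, MCL1 and BCL2A1 as anti-apoptotic members, BAX and BAK1 as effectors, and BCL2L11, BID and BBC3 as BH3-only members. Of these, 9 had a value among the 11650 genes in each file, namely 4 anti-apoptotic and 5 effector or BH3-only genes. BCL2A1 had no value and was not analysed here. RNA sequencing covered 2 libraries of 92.1 cells with the genotype label resistant cells (Res) and 2 of 92.1 cells labelled parental (Ctrl). The labels name neither the agent to which Res cells are resistant nor whether Res is 1 clone, and no other treatment or allele is given for either group. The titles give 92.1 for all 4 libraries although the cell line field changes from library to library, so all were taken as 92.1. Separate cultures are not stated for the replicates, and the spread that p-values rest on here may be technical.

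BCL2 family proteins decide whether the outer mitochondrial membrane stays intact. BAX and BAK form the pores that release cytochrome c, the anti-apoptotic members hold them and the BH3-only proteins in check, and BH3-only proteins carry stress signals to both. In pigment cells and melanoma the lineage factor MITF is known to activate BCL2 and BCL2A1, and BCL2, BCL-XL and MCL1 are the targets of drugs that mimic BH3 peptides.

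BAX and BBC3 were the 2 of 8 tested members whose Res and Ctrl libraries did not overlap, where 51.0% of all genes tested did not. They lay on opposite sides, BAX higher and BBC3 lower in Res, and neither passed the test given below. Both genes are on chromosome 19, and their upstream sequence is shown because they were the pair that separated. The stretches run from the far end of the RefSeq promoter window (GRCh38.p14) to the first annotated exon, 5′ to 3′ on the strand of the gene. Capitals mark CACGTG, the palindromic E-box core that MITF and MYC are known to bind. The BAX stretch is chr19:48954625-48954814 on the plus strand, and the BBC3 stretch is chr19:47232767-47232917 on the minus strand.
BAX: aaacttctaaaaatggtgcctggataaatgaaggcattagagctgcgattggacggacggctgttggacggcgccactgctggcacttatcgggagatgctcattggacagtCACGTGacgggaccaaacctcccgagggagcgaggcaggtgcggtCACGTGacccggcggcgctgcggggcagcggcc
BBC3: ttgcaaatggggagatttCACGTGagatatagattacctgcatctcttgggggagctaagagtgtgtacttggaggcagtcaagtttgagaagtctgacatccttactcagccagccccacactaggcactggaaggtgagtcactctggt
The 190 bases upstream of BAX hold 2 CACGTG cores and the 151 bases upstream of BBC3 hold 1. In the full 300-base window (250 bases before and 50 after the start), BAX had 4 and BBC3 had 1. A window was found for 8 of the 10 genes, some of them for several starts. CACGTG was in a window of 3 of the 8 genes, namely BAX, BBC3 and BID. By window it was in 4 of 13, those of BAX and BBC3 and 2 of the 5 of BID. The 2 BID windows overlap each other, so the same core may be counted in both. Of all 35116 windows 7.26% hold it, and enrichment was not tested. The search covered both strands, since the core reads the same on each. The match describes letters and does not show binding.

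The deposited values are FPKM, fragments scaled to transcript length and to the mapped fragments of the library, so levels of different genes can be compared per length. The sum of FPKM was 292736 and 293481 in Res and 282602 and 283387 in Ctrl libraries, and true depth is unknown. Genes of the mitochondrial genome made up 40.2% and 40.6% of that sum in Res and 37.2% and 37.9% in Ctrl libraries. Res replicate 2 had the lowest median, 4.17 FPKM, where Res replicate 1 had 4.83 and the Ctrl libraries 4.85 and 4.70. The melanocyte markers PMEL, MLANA, TYR, TYRP1 and SOX10 were above 50 FPKM in all 4 libraries. Of the other listed lineage genes, MITF is given below, and the melanin enzyme DCT stood at 0.486 and 0.517 FPKM in Res and at 4.88 and 5.46 FPKM in Ctrl libraries (log2 fold change -2.04 ± 0.17 SE, limma adjusted p = 0.0544). Of 23 listed markers of leukocytes, fibroblasts, epithelium and endothelium, 7 had a value, and together they summed to 25.5 and 26.2 FPKM in Res and to 38.3 and 34.1 FPKM in Ctrl libraries. The leukocyte-listed CD68 and LCP1 were lower in both Res libraries (log2 fold change -1.45 and -0.89), while KRT8, KRT19, COL1A1 and COL1A2 were higher in both, at 0.531 to 6.29 FPKM in Res and 0.00683 to 0.841 FPKM in Ctrl libraries. Their part in the results was not tested. PTPRC, CD3E, EPCAM, CDH1 and PECAM1, which define leukocytes, epithelium and endothelium, had no value.

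No member passed the test between groups. Values were compared as log2(FPKM + 1) in limma, a linear model that shares the spread between genes, for genes averaging 1 FPKM or more across libraries, with Benjamini-Hochberg adjustment over all of them and a threshold of 0.05. Of the 8 members tested, 0 passed, and 1 had an unadjusted limma p under 0.05. Among all 10271 genes tested, 0.0584% passed and 16.2% had an unadjusted p under 0.05. The groups did not overlap for 2 of the 8 members, against 51.0% of all genes tested, a smaller share than over all genes. BCL2L11 averaged under 1 FPKM and was left out by the filter. With 2 libraries a side, the smallest p an exact two-sided permutation can give is 0.333.

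**Figure D1:**
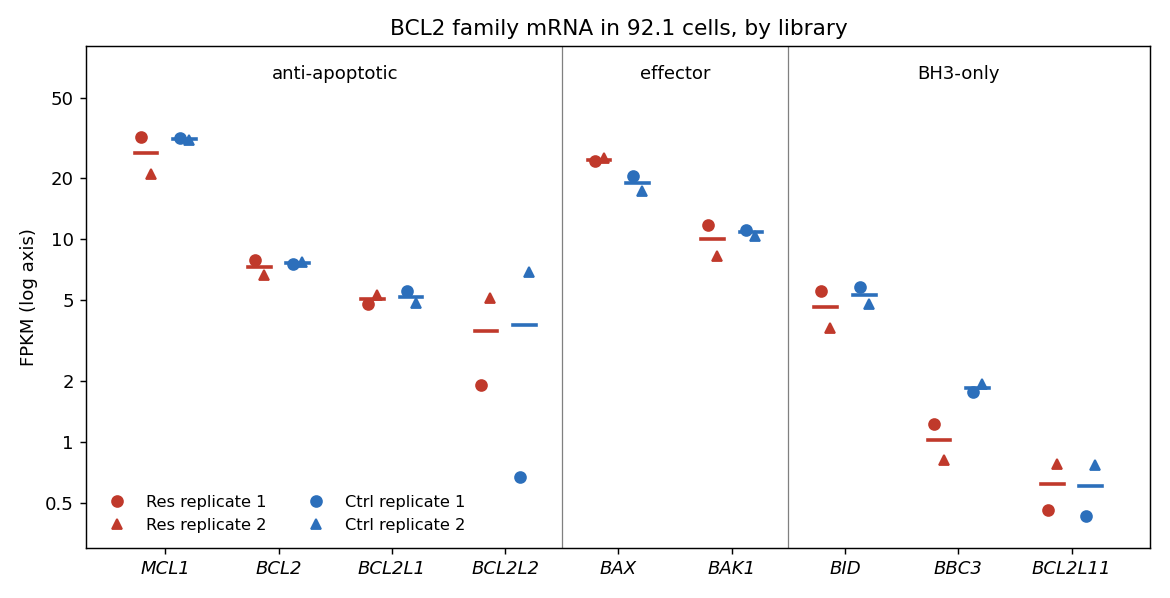
FPKM of the 9 BCL2 family genes with a value (log axis), with Res libraries in red left of Ctrl libraries in blue, circles for replicate 1, triangles for replicate 2 and a line at each mean. MCL1 and BAX lie highest and BCL2L11 lowest in both groups, BAX and BBC3 do not overlap between groups, and BCL2L2 spreads from 0.673 to 6.86 FPKM within Ctrl.

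MCL1, a short-lived protein that binds BAK and BIM, had the highest mean mRNA level of the 9 members in both groups, although BAX was higher in Res replicate 2. The level of MCL1 was 32.1 and 21.1 FPKM in Res libraries and 31.4 and 30.9 FPKM in Ctrl libraries. Res replicate 1 lay above both Ctrl libraries and Res replicate 2 below both, so the groups overlapped. The means were 26.6 ± 7.81 FPKM in Res and 31.2 ± 0.350 FPKM in Ctrl (SD, n = 2 each). The log2 fold change, Res minus Ctrl, was -0.25 ± 0.24 SE (95% interval -0.85 to 0.34, limma adjusted p = 0.627), and it was 0.042 without Res replicate 2 and -0.54 without Res replicate 1. In bulk RNA, fewer cells that express a gene and less RNA per cell cannot be told apart.

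BCL2, the founding member of the family, stood at 7.88 and 6.64 FPKM in Res libraries and at 7.56 and 7.73 FPKM in Ctrl libraries. The Ctrl libraries lay between the Res libraries, with Res replicate 2 the lowest. Its log2 fold change was -0.07 ± 0.18 SE (95% interval -0.53 to 0.39, limma adjusted p = 0.872). BCL2L1, which encodes BCL-XL and, by alternative splicing, the shorter pro-apoptotic BCL-XS, stood at 4.81 and 5.32 FPKM in Res libraries and at 5.57 and 4.82 FPKM in Ctrl libraries. Res replicate 1 and Ctrl replicate 2 were nearly level, and the groups overlapped. Its log2 fold change was -0.03 ± 0.19 SE (95% interval -0.50 to 0.44, limma adjusted p = 0.949). The intervals of both genes leave out a 2-fold difference in either direction on this scale. An FPKM per gene does not separate the BCL2L1 splice forms. The antisense gene ABALON covers 43.0% of the exonic bases of BCL2L1, and since no source states whether counting used strand, reads of the pair cannot be told apart. The sign of both fold changes flipped under median-of-ratios and under quantile scaling.

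BCL2L2, which encodes BCL-W, varied more between replicates than any other member. It stood at 1.90 and 5.15 FPKM in Res libraries and at 0.673 and 6.86 FPKM in Ctrl libraries. Replicate 1 was the lower library in each group, and the Ctrl libraries spanned both Res libraries. On the log2 scale its replicates had a pooled SD of 1.24, which 0.672% of all genes tested exceeded. BCL2L2 shares 813 exonic bases, 19.4% of its own, with the readthrough gene BCL2L2-PABPN1 on the same strand. BCL2L2-PABPN1 stood at 0.202 and 0.574 FPKM in Res libraries and at 3.07 and 1.06 FPKM in Ctrl libraries. The Ctrl library lower in BCL2L2 was the one higher in the readthrough gene, but Res replicate 1 was the lower Res library for both genes. The sum of both genes was 2.10 and 5.73 FPKM in Res and 3.74 and 7.92 FPKM in Ctrl libraries, and the groups still overlapped. How reads were divided between the pair is not given, so the level of BCL2L2 is uncertain. Its log2 fold change was 0.22 ± 0.78 SE (95% interval -1.76 to 2.20, limma adjusted p = 0.907), an interval that holds 2-fold differences in both directions, and for the summed FPKM the difference was -0.51.

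Among the effectors, BAX stood at 24.2 and 25.1 FPKM in Res libraries and at 20.4 and 17.2 FPKM in Ctrl libraries. Both Res libraries lay above both Ctrl libraries, as in 19.1% of all genes tested. The means were 24.7 ± 0.637 FPKM in Res and 18.8 ± 2.27 FPKM in Ctrl (SD, n = 2 each), a ratio of 1.31. The log2 fold change was 0.38 ± 0.17 SE (95% interval -0.06 to 0.81), and it did not pass (limma adjusted p = 0.352). Over the 12 alternative fits it ranged from 0.26 without Ctrl replicate 2 to 0.49 without Ctrl replicate 1. Since the groups did not overlap, only the scalings could have changed its sign, and under them it ranged from 0.33 to 0.48. BAX lies on chromosome 19 from 48954815 to 48961798 (ENSG00000087088.19_3, protein-coding, GENCODE release 29 on GRCh38).

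BAK1, which encodes the effector that resides on mitochondria in living cells, stood at 11.8 and 8.27 FPKM in Res libraries and at 11.2 and 10.4 FPKM in Ctrl libraries. As for MCL1, Res replicate 1 lay above and Res replicate 2 below both Ctrl libraries. Its log2 fold change was -0.12 ± 0.22 SE (95% interval -0.67 to 0.44, limma adjusted p = 0.821), and 0.11 without Res replicate 2. The FPKM of BAX was 2.06 and 3.04 times that of BAK1 in Res libraries and 1.83 and 1.65 times in Ctrl libraries.

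BBC3 encodes PUMA, a BH3-only protein that binds all anti-apoptotic members and is a known target of p53. It stood at 1.23 and 0.808 FPKM in Res libraries and at 1.77 and 1.92 FPKM in Ctrl libraries. Both Res libraries lay below both Ctrl libraries, as in 31.8% of all genes tested. The means were 1.02 ± 0.297 FPKM in Res and 1.85 ± 0.106 FPKM in Ctrl (SD, n = 2 each), a ratio of 0.552. BBC3 was the member with an unadjusted limma p under 0.05 (unadjusted p = 0.0372 in limma), with a log2 fold change of -0.50 ± 0.18 SE (95% interval -0.96 to -0.04), and it did not pass (limma adjusted p = 0.285). At this low level the pseudocount of 1 weighs on the fold change, which was -0.82 with a pseudocount of 0.1. Without Res replicate 2 the log2 fold change was -0.35. Since the groups did not overlap, only the scalings could have changed its sign, and under them it ranged from -0.53 to -0.45. BBC3 lies on chromosome 19 from 47220822 to 47232766 (ENSG00000105327.17_3, protein-coding, GENCODE release 29 on GRCh38).

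BID, which links death receptors to mitochondria once caspase-8 has cut it, stood at 5.55 and 3.65 FPKM in Res libraries and at 5.78 and 4.78 FPKM in Ctrl libraries. Res replicate 2 was the lowest library, and Res replicate 1 lay between the Ctrl libraries. Its log2 fold change was -0.18 ± 0.24 SE (95% interval -0.79 to 0.43, limma adjusted p = 0.742), and 0.065 without Res replicate 2. BCL2L11, which encodes BIM, the activator most closely tied to ERK signalling, had the lowest level of the 9 members. It stood at 0.458 and 0.777 FPKM in Res libraries and at 0.431 and 0.772 FPKM in Ctrl libraries. The groups overlapped, and replicate 2 was the higher library in each. In the fit without a filter its log2 fold change was 0.02 ± 0.18 SE (95% interval -0.45 to 0.48, limma adjusted p = 0.971, with 0.0429% of 11650 genes called in that fit), on a scale that understates differences at such levels. The noncoding gene MIR4435-2HG overlaps 10.9% of its exonic bases on the other strand.

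**Figure D2:**
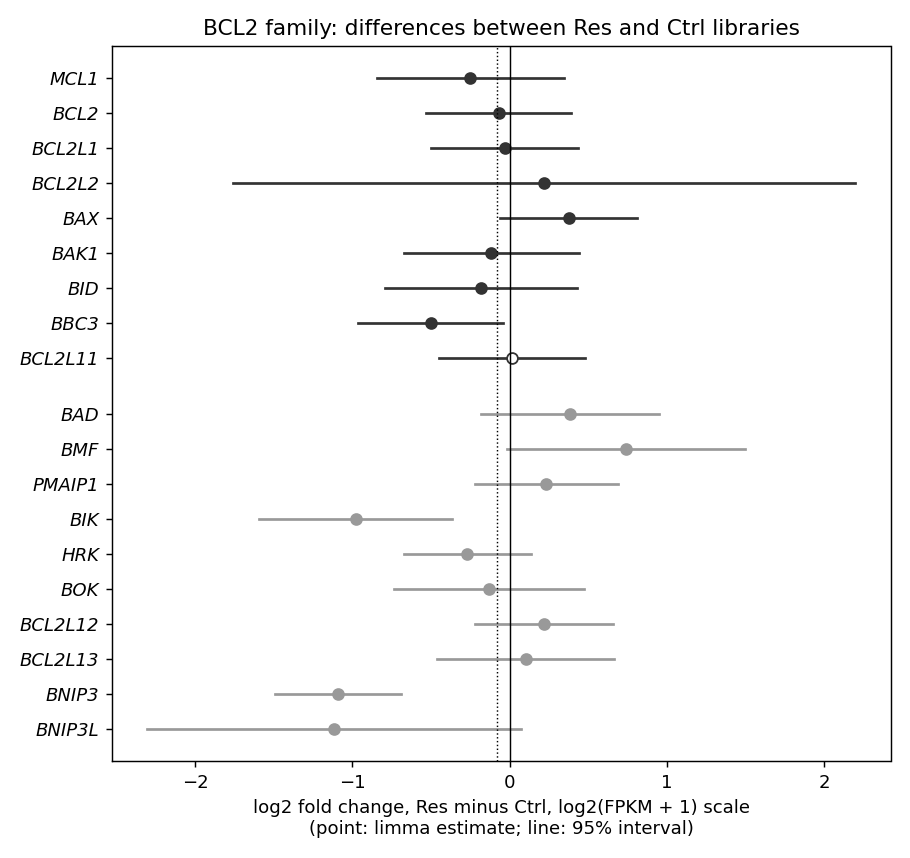
Log2 fold change, Res minus Ctrl, of the 9 members (dark) and of 10 other genes of the wider family (grey), with limma's 95% intervals. The open point is BCL2L11, taken from the fit without a filter, and the dotted line is the median of all genes tested, -0.079. The intervals of all members but BBC3 cross 0, and that of BCL2L2 is the widest of the 9.

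The order of levels was nearly the same in both groups. By mean FPKM it ran MCL1, BAX, BAK1, BCL2, BCL2L1, BID, BCL2L2, BBC3, BCL2L11 in Res, and in Ctrl BID came before BCL2L1. In Res the ranges of neighbours overlapped for MCL1 and BAX, BCL2L1 and BID, and BID and BCL2L2. In Ctrl they overlapped for BID and BCL2L1, BCL2L1 and BCL2L2, and BCL2L2 and BBC3, while MCL1 lay clear of BAX. MCL1 took 31.9% of the summed FPKM of the 9 genes in Res and 36.6% in Ctrl, and BAX took 29.6% in Res and 22.1% in Ctrl.

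The medians of both sides of the family lay near that of all genes. The median log2 fold change was -0.12 over the 5 effector and BH3-only genes and -0.05 over the 4 anti-apoptotic genes, beside -0.07 over all 11650 genes. The anti-apoptotic genes summed to 46.7 and 38.2 FPKM in Res libraries and to 45.2 and 50.3 FPKM in Ctrl libraries. The effector and BH3-only genes summed to 43.2 and 38.6 FPKM in Res libraries and to 39.6 and 35.1 FPKM in Ctrl libraries. The ratio of the anti-apoptotic sum to the other sum was 1.08 and 0.989 in Res and 1.14 and 1.43 in Ctrl libraries, so both Res libraries lay below both Ctrl libraries. That ratio rests largely on MCL1 and BAX. Over the 4 libraries MCL1 made up 55.2% to 69.5% of the anti-apoptotic sum, and BAX 49.1% to 65.0% of the other sum. On the log2 scale, where each gene weighs alike, the mean of the anti-apoptotic genes exceeded that of the effector and BH3-only genes by 0.52 and 0.81 in Res libraries and by 0.34 and 0.89 in Ctrl libraries, and the groups overlapped. The difference between groups in that balance was 0.05 with BCL2L2 included. Without BCL2L2, an alternative chosen after seeing the data, the balance was 1.031 and 0.988 in Res libraries and 1.056 and 1.033 in Ctrl libraries, and the groups did not overlap. That difference was -0.035, with an SD of 0.0303 between Res and 0.0162 between Ctrl libraries (n = 2 each). Scores over chosen members were not tested.

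Ratios over BAX share its values, so they are not independent of each other. The FPKM ratio of BCL2L1 to BAX was 0.199 and 0.212 in Res libraries and 0.273 and 0.280 in Ctrl libraries. That of BCL2 to BAX was 0.325 and 0.265 in Res libraries and 0.370 and 0.448 in Ctrl libraries. That of MCL1 to BAX was 1.33 and 0.839 in Res libraries and 1.54 and 1.79 in Ctrl libraries. In all 3 ratios the Res libraries lay below the Ctrl libraries. BAX by itself separated the groups, while BCL2, BCL2L1 and MCL1 did not, so the 3 ratios are not separate results. Against BAK1, MCL1 stood at 2.73 and 2.55 in Res libraries and at 2.82 and 2.97 in Ctrl libraries, lower in Res but by a smaller step. For BCL2 and BCL2L1 against BAK1 the groups overlapped, so the pattern over BAX did not hold for all ratios over BAK1. The share of all gene pairs whose ratio separates the groups was not computed. These are ratios of mRNA levels and not of proteins.

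**Figure D3:**
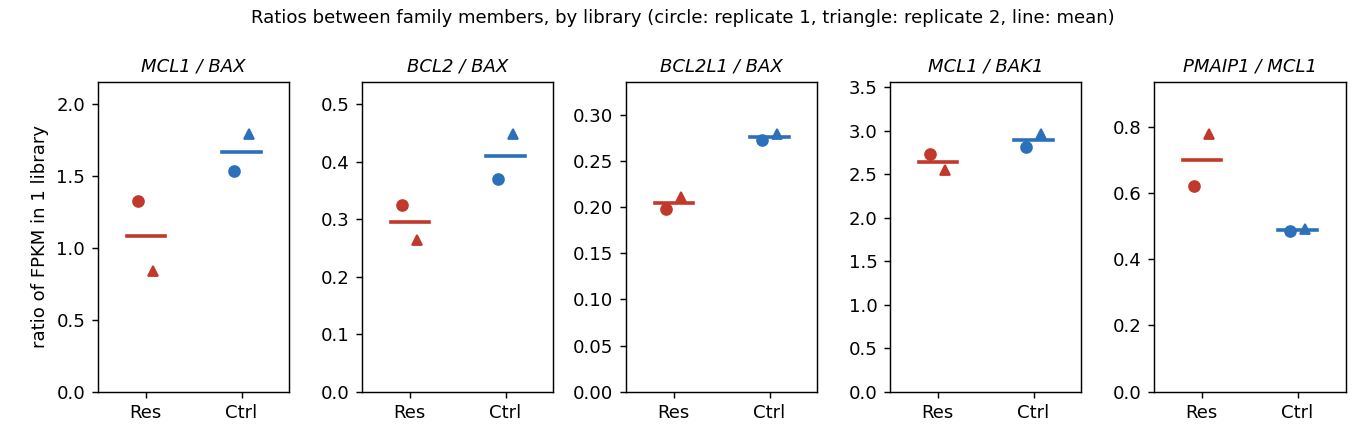
Ratio of FPKM between a pair of genes within each library, with Res left of Ctrl in each panel, circles for replicate 1, triangles for replicate 2 and lines at the means. The 4 ratios shown over BAX or BAK1 are lower in both Res libraries, and PMAIP1 over MCL1 is higher in both. BCL2 and BCL2L1 over BAK1, which are not shown, overlap between groups.

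The wider BCL2 family gave 10 genes with a value of 13 listed, all tested. In limma 0 passed the adjusted threshold, and 0 higher and 2 lower genes had an unadjusted p under 0.05, against 6.06% and 10.2% of all genes tested. The median log2 fold change of the 10 genes was -0.013, beside -0.079 over all genes tested. Of the 10, 4 lay above and 4 below Ctrl in both Res libraries, beside 19.1% and 31.8% of all genes tested. BMF and BAD, BH3-only genes, were higher in both Res libraries. BMF, whose protein is held by the myosin V motor in healthy cells, stood at 7.45 and 5.70 FPKM in Res libraries and at 4.78 and 2.51 FPKM in Ctrl libraries (log2 fold change 0.74 ± 0.30 SE, limma adjusted p = 0.316), and its log2 fold change was 0.38 without Ctrl replicate 2. BAD, which binds BCL-XL and BCL2 when unphosphorylated, stood at 16.1 and 19.0 FPKM in Res and at 15.6 and 11.1 FPKM in Ctrl libraries (0.38 ± 0.22 SE, limma adjusted p = 0.446), with 0.16 without Ctrl replicate 2 and 0.61 without Ctrl replicate 1.

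PMAIP1, which encodes NOXA, the BH3-only partner of MCL1, stood at 19.97 and 16.4 FPKM in Res libraries and at 15.3 and 15.2 FPKM in Ctrl libraries (log2 fold change 0.23 ± 0.18 SE, limma adjusted p = 0.549). The ratio of PMAIP1 to MCL1 was 0.622 and 0.779 in Res and 0.486 and 0.492 in Ctrl libraries. BIK, a BH3-only gene whose protein sits at the endoplasmic reticulum, stood at 0.0982 and 0.684 FPKM in Res libraries and at 1.57 and 1.79 FPKM in Ctrl libraries (-0.98 ± 0.24 SE, limma adjusted p = 0.188), with -2.17 at a pseudocount of 0.1. BIK averaged just over 1 FPKM and passed the filter through its Ctrl level. HRK, another BH3-only gene, was 0.952 and 1.13 FPKM in Res and 1.39 and 1.53 FPKM in Ctrl libraries (-0.27 ± 0.16 SE, limma adjusted p = 0.451).

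BNIP3 and BNIP3L, mitophagy receptors with a BH3-like stretch and known hypoxia targets, were lower in both Res libraries. BNIP3 stood at 12.6 and 13.5 FPKM in Res libraries and at 29.01 and 28.8 FPKM in Ctrl libraries (log2 fold change -1.09 ± 0.16 SE, limma adjusted p = 0.099). BNIP3L stood at 12.1 and 34.4 FPKM in Res libraries and at 43.2 and 48.3 FPKM in Ctrl libraries (-1.12 ± 0.47 SE, limma adjusted p = 0.327). Res replicate 1 was far lower than Res replicate 2 in BNIP3L, and without it the log2 fold change was -0.40. BOK (-0.13), BCL2L12 (0.22) and BCL2L13 (0.10), in log2 fold change, had limma adjusted p of 0.817, 0.566 and 0.842.

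Downstream of the pores, 11 of 12 listed genes of the apoptosome and caspases were tested in limma, and 0 passed the adjusted threshold. At an unadjusted limma p under 0.05, 0 were higher and 2 lower, beside 6.06% and 10.2% of all genes tested. The median log2 fold change of the list was -0.10, beside -0.079 over all genes tested. APAF1, the scaffold that cytochrome c assembles into the apoptosome, stood at 1.82 and 1.90 FPKM in Res libraries and at 3.61 and 3.85 FPKM in Ctrl libraries (-0.72 ± 0.17 SE, limma adjusted p = 0.176). DIABLO, which encodes the IAP antagonist SMAC, stood at 8.85 and 8.13 FPKM in Res libraries and at 12.1 and 12.3 FPKM in Ctrl libraries (-0.47 ± 0.17 SE, limma adjusted p = 0.282). CYCS, cytochrome c itself, was the most abundant at 97.4 and 94.8 FPKM in Res and 101 and 104 FPKM in Ctrl libraries (-0.09 ± 0.13 SE, limma adjusted p = 0.769). Over the list, 4 of the 11 tested genes lay below and 1 above Ctrl in both Res libraries, beside 31.8% and 19.1% of all genes tested.

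Of the IAP family, inhibitors of caspases and of death receptor signalling, 4 of 7 listed genes were tested in limma. At the adjusted threshold 0 passed, and 0 had an unadjusted limma p under 0.05, beside 16.2% of all genes tested. Of the 4, 1 lay above and 1 below Ctrl in both Res libraries, beside 19.1% and 31.8% of all genes tested. BIRC7, an IAP known from melanoma, stood at 15.3 and 15.8 FPKM in Res libraries and at 20.5 and 20.6 FPKM in Ctrl libraries (log2 fold change -0.38 ± 0.16 SE, limma adjusted p = 0.322). BIRC6 stood at 6.76 and 6.10 FPKM in Res libraries and at 4.66 and 5.25 FPKM in Ctrl libraries (0.32 ± 0.18 SE, limma adjusted p = 0.438). Of the mitochondrial membrane partners, 11 of 11 were tested, with a median of -0.14 beside -0.079 over all genes tested. In both Res libraries 2 lay below and 0 above Ctrl, beside 31.8% and 19.1% of all genes tested. In limma 0 passed the adjusted threshold and 1 was lower at an unadjusted p under 0.05, as were 10.2% of all genes tested. That gene was HK2, a hexokinase that docks on the channel VDAC, at 4.05 and 3.57 FPKM in Res and 8.85 and 8.55 FPKM in Ctrl libraries (-1.01 ± 0.18 SE, limma adjusted p = 0.127). VDAC1, the most abundant of them, stood at 92.2 and 68.8 FPKM in Res and at 85.5 and 89.7 FPKM in Ctrl libraries, and MTCH2, the mitochondrial receptor of truncated BID, at 53.6 and 51.2 FPKM in Res and at 54.8 and 59.1 FPKM in Ctrl libraries.

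Along the route from death receptors to BID, 7 of 11 listed genes were tested in limma (median 0.11, beside -0.079 over all genes tested). At the adjusted threshold 0 passed, and 0 had an unadjusted limma p under 0.05, beside 16.2% of all genes tested. In both Res libraries 2 lay above and 1 below Ctrl, beside 19.1% and 31.8% of all genes tested. CASP8, which encodes the caspase that cuts BID, had no value and was not analysed here. CASP2, another initiator caspase, stood at 2.19 and 6.88 FPKM in Res libraries and at 1.97 and 0.819 FPKM in Ctrl libraries (log2 fold change 1.11 ± 0.49 SE, limma adjusted p = 0.338), with 0.46 without Res replicate 2. The receptor FAS stood at 1.23 and 1.42 FPKM in Res and at 1.05 and 0.776 FPKM in Ctrl libraries. TNFRSF10B, the TRAIL receptor DR5, stood at 17.7 and 11.8 FPKM in Res and at 17.3 and 16.5 FPKM in Ctrl libraries.

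Among genes that set the turnover of BIM and MCL1 proteins, 13 of 14 were tested in limma, and 0 passed the adjusted threshold. At an unadjusted limma p under 0.05, 1 was higher and 1 lower, beside 6.06% and 10.2% of all genes tested. The median of the 13 was 0.029, beside -0.079 over all genes tested. In both Res libraries 2 lay above and 2 below Ctrl, beside 19.1% and 31.8% of all genes tested. DUSP6, a phosphatase of ERK, the kinase that marks BIM for degradation, stood at 15.9 and 24.9 FPKM in Res libraries and at 10.7 and 8.46 FPKM in Ctrl libraries (log2 fold change 1.00 ± 0.27 SE, limma adjusted p = 0.205). BAG3, a co-chaperone known to stabilise anti-apoptotic members, stood at 12.6 and 7.30 FPKM in Res libraries and at 17.5 and 15.2 FPKM in Ctrl libraries (-0.71 ± 0.28 SE, limma adjusted p = 0.308), with -0.35 without Res replicate 2 and -1.06 without Res replicate 1.

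Of the transcription regulators of the family, 13 of 14 were tested in limma, and 0 passed the adjusted threshold. At an unadjusted limma p under 0.05, 1 was higher and 1 lower, beside 6.06% and 10.2% of all genes tested. The median log2 fold change of the 13 was -0.29, beside -0.079 over all genes tested. Of the 13, 7 lay below and 2 above Ctrl in both Res libraries, beside 31.8% and 19.1% of all genes tested. MYC, known to sensitise cells to apoptosis, stood at 3.06 and 4.67 FPKM in Res libraries and at 8.23 and 7.85 FPKM in Ctrl libraries (-0.91 ± 0.23 SE, limma adjusted p = 0.192). MITF stood at 9.64 and 31.8 FPKM in Res libraries and at 35.3 and 37.4 FPKM in Ctrl libraries (-1.00 ± 0.52 SE, limma adjusted p = 0.403), and at -0.19 without Res replicate 1. BCL2, a known MITF target, was 7.88 FPKM in Res replicate 1, the library with the lowest MITF, and 6.64 FPKM in Res replicate 2. These libraries also differ in scale, with median-of-ratios size factors of 1.04 for Res replicate 1 and 0.906 for Res replicate 2. Whether BCL2 followed MITF here was not tested.

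**Figure D4:**
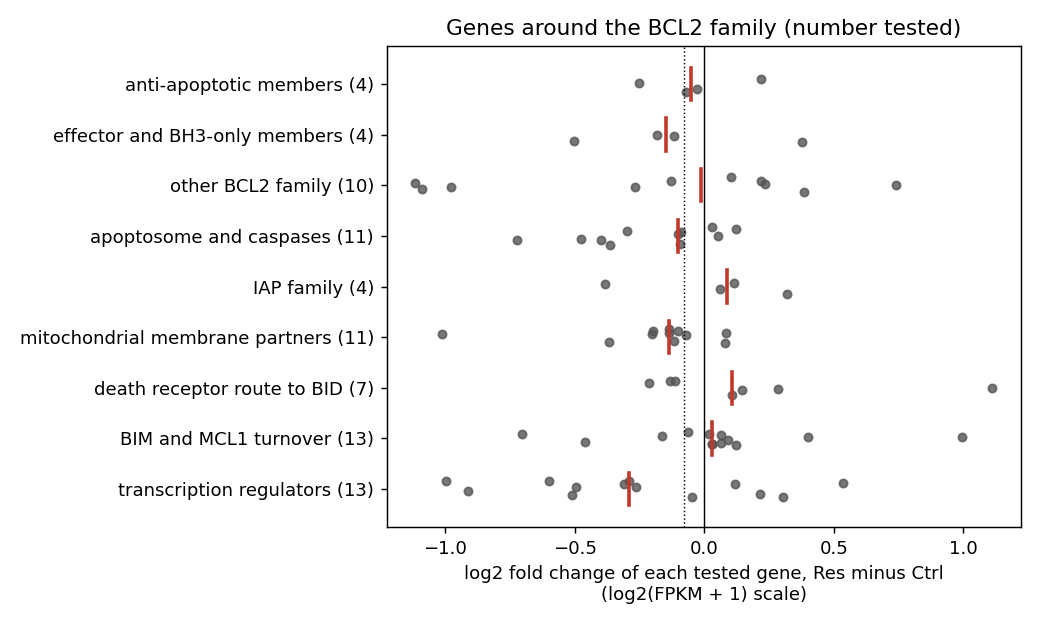
Log2 fold change, Res minus Ctrl, of each tested gene on the family and pathway lists (grey points, number tested in brackets), with each list's median in red and the median of all genes tested, -0.079, as a dotted line. The median of the anti-apoptotic members (-0.05, and above 0 under median-of-ratios and quantile scaling) lies above that line and the median of the 13 transcription regulators (-0.29) below it, and 0 of the 69 tested pathway genes passed the adjusted limma threshold.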

How the data were processed

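RNA of 2 Res and 2 Ctrl libraries was sequenced. It was phenol-extracted, per the labels' protocols, enriched by poly(A) selection or depleted of ribosomal RNA (which route applied is not given), and made into dUTP-stranded libraries. The authors deposited 1 FPKM value per gene and library, per the file headers. The genome build was hg38, per the submitters' processing notes. No source used here names the aligner, quantifier, annotation release or strand setting. Of the 11650 identifiers, 11575 matched a table of current gene names and 11596 matched GENCODE release 29 (GRCh38), from which positions come. The identifiers of 11551 genes carry a suffix as used for annotation lifted to the older build, so the authors' annotation was not settled. The smallest larger group mean was 0.501 FPKM, so low genes seem to have been removed before deposit. The filter used here can pass a gene through 1 group.

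FPKM are not counts, so no count model was used. Low values of 701 single-transcript genes showed no clear step of 1 fragment (at most 5 genes in any window of 1% width), so depth is unknown. Values were tested as log2(FPKM + 1) in limma 3.58.1 (R 4.3.3) with a variance trend over the 10271 genes averaging 1 FPKM or more, two-sided, with Benjamini-Hochberg adjustment. The fit was run on simulated data drawn from its own fitted spread, which checks the code and cannot speak to technical replicates or library scale. Fold changes understate differences of low genes. Python 3.11.15 made the tables and plots. Alternatives were a pseudocount of 0.1, no filter, median-of-ratios, quantile, common-sum and nuclear-only scaling, no variance trend, a replicate block and leaving out each library. Lists were described by counts and medians only.

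The members, lists and tests were chosen with earlier results of these data known. All members and wider family genes with a value were named. Of each other list, the text names genes past the threshold or else the 2 with the largest log2 fold change among genes whose groups did not overlap, and the most abundant one. CASP8 was named besides for its missing value. Promoter windows came from RefSeq (GRCh38.p14).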

Additional observations from a re-analysis of the deposited data

How the results depend on the processing

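Under 12 alternative fits, 0 of 96 limma tests of the 8 tested members passed the adjusted threshold, and the smallest adjusted p was 0.0743, for MCL1 without Res replicate 1. No pathway gene passed in any of the 12. Over all genes, limma called 5 higher and 1 lower. It called 3 higher with a pseudocount of 0.1, after quantile normalization and under median-of-ratios scaling, and from 0 to 19 higher and 0 to 13 lower when 1 library was left out. With no gene called higher, unadjusted limma p was under 0.05 for 3635 genes without Res replicate 1 and for 2195 without Res replicate 2. With the replicate number as a block, 4 genes were called higher and 1 lower, and no family call changed. Deviations of same-numbered libraries correlated at -0.071, so the numbers were not taken to pair the libraries.

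Median-of-ratios and quantile scaling gave log2 fold changes of 0.022 and 0.019 for BCL2 and of 0.058 and 0.042 for BCL2L1, and an anti-apoptotic median of 0.040 and 0.030. That median was -0.093 after rescaling to a common sum. CYCS stood at 0.013 with median-of-ratios scaling. These scalings moved the median of all genes by 0.088, 0.067 and -0.041. Summed with BCL2L2-PABPN1, an alternative chosen after seeing the data, BCL2L2 stood at -0.51. Leaving out BCL2L2, also chosen after seeing the data, took the difference in balance from 0.049 to -0.035. The groups then did not overlap, but only narrowly, with 1.031 in Res replicate 1 beside 1.033 in Ctrl replicate 2.

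With 1 library left out, log2 fold changes ranged from -0.18 to 0.039 for BCL2, from -0.12 to 0.058 for BCL2L1, from -0.90 to 1.34 for BCL2L2, from -0.54 to 0.042 for MCL1, from -0.35 to 0.11 for BAK1 and from -0.43 to 0.065 for BID. They ranged from -0.34 to 0.082 for BOK, from -0.10 to 0.31 for BCL2L13, from -0.34 to 0.073 for VDAC1 and from -0.49 to 0.064 for TNFRSF10B. The anti-apoptotic median ranged from -0.16 to -0.026, the effector and BH3-only median from -0.35 to 0.065, and the balance from -0.23 to 0.32. Where a group kept 1 library, it was assumed to vary like the other group. The cause of these differences was not tested.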
